A study of Mus musculus with 6 samples.

Results

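The genes described here are the replication-dependent histone genes, the multicopy genes that supply linker histone H1 and the core histones H2A, H2B, H3 and H4. Members were protein-coding rows of the count table whose established symbol begins with Hist1h, Hist2h, Hist3h or Hist4h. The table prints only 8 of them under such a symbol (for example Hist1h2an and Hist1h4m), and the other 59 stand under newer symbols (for example H4c3, formerly Hist1h4c), which were recognised by their position in the GENCODE M21 annotation. This gave 67 members of 55291 genes, with 6 for H1, 18 for H2A, 18 for H2B, 12 for H3 and 13 for H4. On the mm10 assembly, 54 lie on chromosome 13, 10 on chromosome 3, 2 on chromosome 11 and 1 on chromosome 6. Total RNA was sequenced from whole dorsal skin, shaved and snap frozen, in 3 wild-type (WT) samples of strain C57BL/6 (libraries 1 to 3) and 3 samples of strain B6.Cg-Fbn1Tsk/J (libraries 4 to 6), all at day 40. The second group carries a tight-skin (Tsk) mutation in Fbn1, which encodes the microfibril protein fibrillin 1. Tsk is a germline allele, known as an internal duplication, and so is present in every cell type of the skin. The labels write the genotype as Fbn1+/-, and reading this as 1 Tsk allele and 1 wild-type allele is an assumption. The comparison asks how gene expression in Tsk skin differs from that in WT skin. Whole skin mixes epidermis, hair follicle, dermis, fat and muscle, so fewer dividing cells and less histone RNA per cell cannot be told apart. The labels do not state whether each sample is a separate animal, and each p-value then speaks only for the spread among the 6 samples.

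Histones are the proteins around which DNA is wound, and cells must make a large supply of them while they copy their DNA. Replication-dependent histone mRNAs are the only animal mRNAs that normally end without a poly(A) tail. Their 3' end is a conserved stem-loop that is bound by the protein SLBP, and they are broken down when replication stops. Some members also give polyadenylated transcripts from a site further downstream, which are known to persist in cells that have stopped dividing. In skin, dividing cells are found mainly in the basal epidermis and the growing hair follicle. The libraries were made from total RNA after depletion of ribosomal RNA, so transcripts without a poly(A) tail could be captured.

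The stem-loop is the sequence that sets these mRNAs apart, and it was found in the gene models of 42 members, in 5 forms. Capitals mark the 6-base stem on either side and the 4-base loop, with up to 5 flanking bases on each side, from the GENCODE M21 transcripts. The most frequent form stood in 26 members and is shown for H1f2 and H2ac19. A form with the same loop on a GC-richer stem stood in 7 members, all of them H4 genes, and is shown for H4c3. The form with the loop TTTA stood in 6 members, shown for H2bc3. The loop TTTT stood on the GC-richer stem in 2 H4 genes, shown for H4c9, and on the other stem in H2ac20 alone.
H1f2: caaaaGGCTCTTTTCAGAGCCaccac
H2ac19: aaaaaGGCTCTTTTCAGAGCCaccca
H4c3: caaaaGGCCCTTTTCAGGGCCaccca
H2bc3: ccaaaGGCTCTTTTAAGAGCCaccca
H4c9: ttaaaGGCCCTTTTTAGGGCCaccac
H2ac20: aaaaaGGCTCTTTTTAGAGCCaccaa

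Promoters of members whose levels are described below are shown next, because the classes differ in which short motifs they hold. Each is the 250 bases before the RefSeq start of the gene, read 5' to 3' along the gene (GRCm38.p6). Capitals mark a CCAAT box, a TATA box with the letters TATAAA, or an H1 box with the letters AAACACA, on either strand. In H2ac19 the marked box is on the other strand and reads ATTGG here, and H4c8 holds no such motif. The H1f2 window is chr13:23738557-23738806 on the plus strand, that of H2ac19 is chr3:96240375-96240624 on the minus strand, and that of H3c11 is chr13:21783398-21783647 on the minus strand. The H4c3 window is chr13:23698459-23698708 on the minus strand and the H4c8 window is chr13:23530794-23531043 on the plus strand.
H1f2: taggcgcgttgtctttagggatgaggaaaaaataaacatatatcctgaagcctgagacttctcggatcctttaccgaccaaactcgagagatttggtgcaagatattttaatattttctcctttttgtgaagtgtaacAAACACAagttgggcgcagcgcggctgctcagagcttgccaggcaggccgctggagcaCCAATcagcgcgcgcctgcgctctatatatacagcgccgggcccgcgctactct
H2ac19: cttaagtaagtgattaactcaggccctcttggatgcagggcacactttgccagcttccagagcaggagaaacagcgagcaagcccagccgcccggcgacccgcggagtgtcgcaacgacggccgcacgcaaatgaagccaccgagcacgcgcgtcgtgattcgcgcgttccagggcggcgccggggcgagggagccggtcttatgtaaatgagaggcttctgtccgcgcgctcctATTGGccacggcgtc
H3c11: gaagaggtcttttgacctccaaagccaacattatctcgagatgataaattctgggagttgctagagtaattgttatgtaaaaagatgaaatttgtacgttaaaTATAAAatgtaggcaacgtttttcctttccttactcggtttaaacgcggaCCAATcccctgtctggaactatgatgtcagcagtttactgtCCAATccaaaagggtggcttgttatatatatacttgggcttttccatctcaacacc
H4c3: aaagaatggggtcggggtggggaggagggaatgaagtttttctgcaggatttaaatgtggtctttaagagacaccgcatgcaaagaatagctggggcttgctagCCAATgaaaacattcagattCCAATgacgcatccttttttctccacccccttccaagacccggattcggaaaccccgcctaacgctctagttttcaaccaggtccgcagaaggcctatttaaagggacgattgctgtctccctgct
H4c8: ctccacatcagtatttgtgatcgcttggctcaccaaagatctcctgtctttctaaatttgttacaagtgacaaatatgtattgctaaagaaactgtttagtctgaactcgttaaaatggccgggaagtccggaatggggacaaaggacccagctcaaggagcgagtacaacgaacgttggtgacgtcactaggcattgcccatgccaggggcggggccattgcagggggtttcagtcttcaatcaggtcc

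Of the 67 members, 62 matched a RefSeq promoter, and motifs were counted on both strands of windows of 300 bases. CCAAT, the box bound by the factor NF-Y, was found in all 6 H1, all 18 H2A, all 16 H2B and all 10 H3 windows that matched, but in 3 of 12 H4 windows. It was found in 37.4% of all 32817 mouse promoters. TATAAA was found in 35 of the 62 windows, against 13.6% of all promoters. The octamer ATTTGCAT, bound by Oct-1, was found in 7 of 18 H2A and 7 of 16 H2B windows and in no H1, H3 or H4 window, against 1.74% of all promoters. AAACACA, the H1 box, was found in 5 of 6 H1 windows, against 7.19% of all promoters. An H2A and an H2B gene often stand head to head, and 12 such pairs had starts 176 to 306 bases apart, so their windows overlap and these counts are not independent. A match is a sequence in the window and says nothing about binding in these samples.

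Library totals ran from 17561271 to 19219622 counts. Fbn1 stood at 260.2, 350.6 and 295.5 CPM in WT and at 1447, 2049 and 1778 CPM in Tsk, with a log2 fold change (Tsk minus WT) of 2.54 ± 0.24 (SE; adjusted p = 0.00402 by edgeR). CPM here are counts scaled to a common library total and corrected with TMM factors, which allow for a few very abundant genes. Many members are near-identical copies, so the reads of a single gene are uncertain. At least 1 estimated count was not a whole number (tolerance 0.001) in 62 of 67 members, and in 76.3% of all genes tested. The median member had 45.9% of its 50-base stretches found nowhere else in the transcripts, and H2ac18, H2ac19, H2bc18, H3c13 and H3c14 had none. Sums over a class are therefore given beside single genes. For 24 members the span also overlaps another gene row, 21 of them on the opposite strand, and the strand setting of the counting is not given in the sources used here. H1f4 and H2bc6 overlap each other on the same strand.

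WT library 1 stood apart in the histone genes. Of 58 members that passed the filter on low counts, 43 (74.1%) had their highest level of all 6 libraries in it, whereas 18.3% of all genes tested did. The level in WT library 1 was a median of 1.86 times that in WT library 2 over these members, and 1.01 times over all genes. The SD was a median of 33.7% of the mean in WT and 17.3% in Tsk over the members, against 16.2% and 15.97% over all genes.

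Histone mRNA was lower on average in Tsk skin, but no member passed the test (3.42% of all genes did) and the difference shrank without WT library 1. The 67 members together stood at 723.9, 518.2 and 585.2 CPM in WT and at 509.5, 464.2 and 445.3 CPM in Tsk. All 3 Tsk sums lay below all 3 WT sums, with Tsk library 4 close to WT library 2. By class, only the H1 and H2A sums were separated in this way. In H2B, H3 and H4 the groups overlapped, with Tsk library 4 above WT library 2 (85.8 against 82.6 CPM, 59.7 against 49.7 CPM and 159.6 against 141.3 CPM). Over all 67 members the means were 609 ± 105 CPM in WT and 473 ± 33.0 CPM in Tsk (SD, n = 3 each), a ratio of 0.777, and the ratio to WT libraries 2 and 3 alone was 0.857. As a share of all counts, without TMM factors, the groups overlapped. That share was 0.0742, 0.0426 and 0.0519% in WT and 0.0542, 0.0517 and 0.0502% in Tsk.

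**Figure D1:**
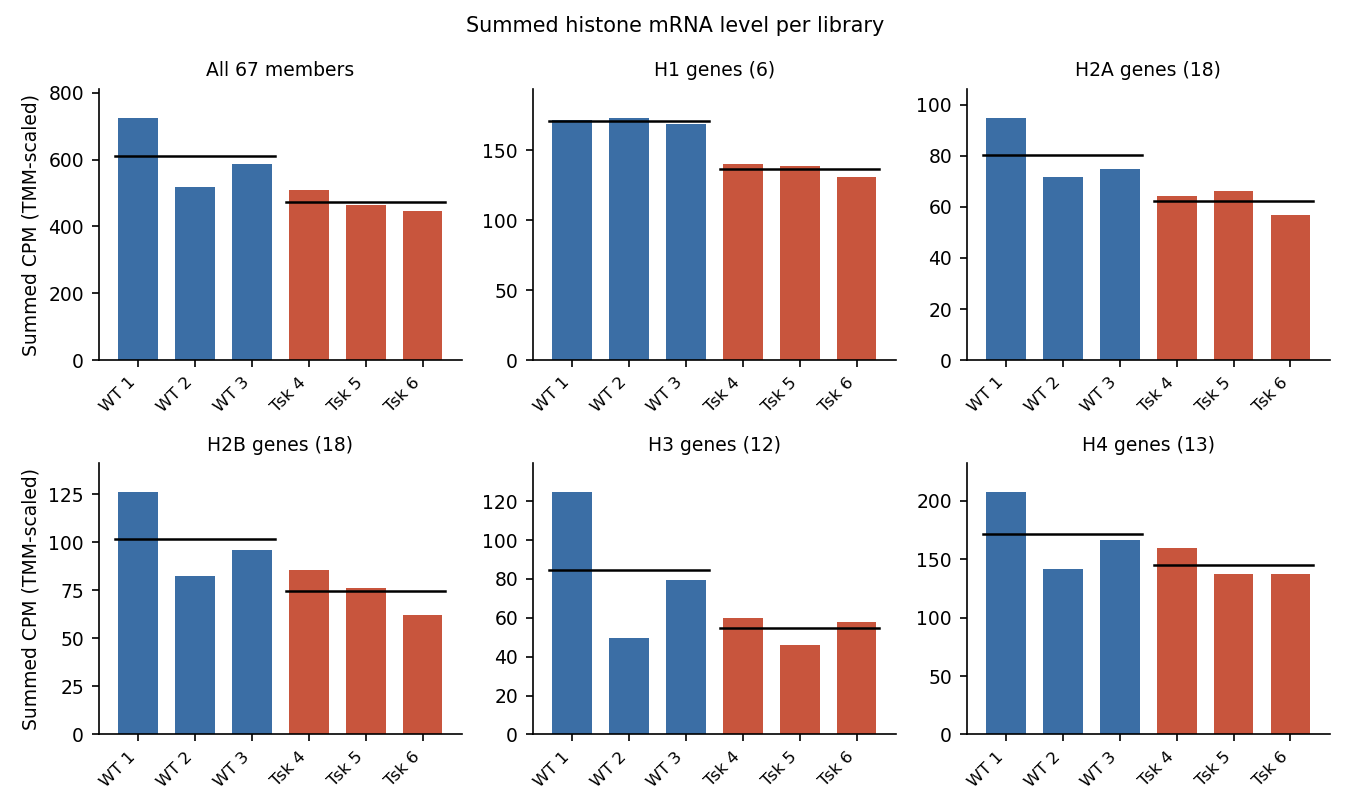
Summed level of the histone genes in each library, in CPM scaled with TMM factors, for all 67 members and for each class. Each bar is 1 library (WT in blue, Tsk in red) and each black line is a group mean. The H1 sums of the Tsk libraries (130.8 to 140.3 CPM) lie below those of WT (168.9 to 173.0 CPM). The H2A sums are also separated, at 56.9 to 66.0 CPM in Tsk and 71.7 to 94.8 CPM in WT. In H2B, H3 and H4 the groups overlap and WT 1 is the highest bar.

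Gene by gene, 51 of 58 tested members had a log2 fold change below 0 (Tsk minus WT), with a median of -0.44, against a median of -0.03 over all 19971 genes tested. By edgeR's quasi-likelihood test with Benjamini-Hochberg adjustment, 0 members were called lower and 0 higher, where 0.696% of all genes were called lower and 2.72% higher (3.42% in all). At an unadjusted p under 0.05, 12 members (20.7%) were lower and 0 were higher. Of all genes, 7.95% were lower at that threshold, and 20.1% passed it in either direction. The WT and Tsk libraries did not overlap in 11 members (18.97%) with Tsk lower and in 1, H2ac21, with Tsk higher, against 10.6% and 14.1% of all genes. Without WT library 1 the median of the members was -0.13 and 38 of 58 were below 0, and the median over all genes was 0.02. The 11 members with Tsk lower and separated groups ran from -0.27 to -1.13 without WT library 1, with edgeR adjusted p of at least 0.0637. Their sign there says little, because they were picked for having every Tsk library below every WT library. DESeq2's Wald test called 4 members lower and 0 higher, where it called 2.18% of all genes lower. These were H3c11, H4c3, Hist1h4m and Hist1h2an. Leaving out WT library 2, the lowest WT library, moved the median of the H3 genes from -0.64 to -0.90. It brought 1 call, H3c8, at a log2 fold change of -1.65 and an edgeR adjusted p of 0.0410. The share of all genes called in that setting is not given here, so this call cannot be set against it.

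Nucleosome assembly begins with H3 and H4, which form the tetramer at its core. Among H3 genes, all 11 tested members were below 0, with a median log2 fold change of -0.64, and the median was -0.17 without WT library 1. H3c11 (chr13:21782960-21783370, minus strand) had the smallest p of all members. It stood at 13.4, 7.50 and 8.74 CPM in WT and at 4.50, 4.11 and 5.45 CPM in Tsk, so every Tsk library was below every WT library. Its log2 fold change was -1.08 ± 0.24 (SE) and the edgeR adjusted p was 0.0514, and the adjusted p ran from 0.00337 to 0.139 over the alternatives. Without WT library 1 the value was -0.77, with an edgeR adjusted p of 0.0637. Of its 50-base stretches 12.4% were unique, so part of its count may belong to other H3 copies.

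H3c4, another H3 gene, stood at 6.22, 3.75 and 6.08 CPM in WT and at 3.41, 2.99 and 2.72 CPM in Tsk. The groups did not overlap and the log2 fold change was -0.82 ± 0.24 (SE; adjusted p = 0.105 by edgeR). The H3 genes with the most reads, H3c13, H3c2 and H3c15, overlapped between the groups. H3c2 stood at 18.2, 4.85 and 12.3 CPM in WT and at 8.90, 6.58 and 7.05 CPM in Tsk. WT library 2 was the lowest of all 6 and WT library 1 the highest, so the groups overlapped. H3c13 stood at 19.4, 7.83 and 12.5 CPM in WT and at 9.62, 6.44 and 9.53 CPM in Tsk, with the same order in WT. The log2 fold change of H3c15 was -0.58 ± 0.31 (SE; adjusted p = 0.351 by edgeR). Leaving out WT library 1 gave -0.09 for H3c15, -0.17 for H3c2 and -0.23 for H3c13. The summed H3 level differed most between WT libraries, at 124.5 CPM in library 1 against 49.7 CPM in library 2, a ratio of 2.51.

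Among the 13 H4 genes, all tested, 10 were below 0 and the median log2 fold change was -0.28. That median was 0.0047 without WT library 1 and 0.01 with library totals in place of TMM factors. H4c3 (chr13:23697635-23698454, minus strand) stood at 30.4, 23.5 and 26.4 CPM in WT and at 19.30, 18.4 and 17.0 CPM in Tsk. The groups did not overlap, and the log2 fold change was -0.56 ± 0.13 (SE; adjusted p = 0.0621 by edgeR). Hist1h4m (chr13:21811746-21812147, plus strand) stood at 22.3, 15.01 and 17.8 CPM in WT and at 12.9, 10.8 and 7.33 CPM in Tsk, again without overlap. The log2 fold change was -0.83 ± 0.23 (SE; adjusted p = 0.0875 by edgeR), and 10.2% of its 50-base stretches were unique. The abundant H4c8 and H4c4 did not share this pattern. H4c8 (chr13:23531050-23531519, plus strand) stood at 38.0, 30.3 and 33.8 CPM in WT and at 39.3, 35.1 and 30.3 CPM in Tsk. The groups overlapped over almost their whole range, with a log2 fold change of 0.04 ± 0.14 (SE; adjusted p = 0.921 by edgeR). H4c4 had a log2 fold change of 0.09 ± 0.21 (SE; adjusted p = 0.849 by edgeR), and 0.38 without WT library 1. H4c8 was also the member with the highest level per kilobase of exon, at 73.3 CPM per kilobase over the 6 libraries, ahead of H2ac19 at 59.3 and H1f2 at 55.1. This order depends on the annotated length, because the H1f2 model runs 840 bases past the stem-loop and the H4c8 model 46 bases.

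H2A and H2B form the dimers that complete the nucleosome. Of 15 tested H2A genes 12 were below 0 (median log2 fold change -0.48, or -0.09 without WT library 1), and of 14 tested H2B genes 13 were (median -0.38, or -0.13 without it). H2ac19 (chr3:96239749-96240276, minus strand) stood at 39.3, 36.0 and 34.0 CPM in WT and at 25.1, 30.8 and 22.5 CPM in Tsk. The groups did not overlap, and the log2 fold change was -0.48 ± 0.14 (SE; adjusted p = 0.107 by edgeR). None of its 50-base stretches was unique, and its near copy H2ac18 held 2.90 to 4.29 estimated counts per library, so the value is best read for both. Hist1h2an stood at 2.11, 1.29 and 2.17 CPM in WT and at 0.828, 0.607 and 0.892 CPM in Tsk. In log2 fold change it was at -1.26 ± 0.32 (SE; adjusted p = 0.0719 by edgeR), with 14.2% of its stretches unique.

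H2ac20 stood at 4.33, 2.46 and 2.85 CPM in WT and at 2.02, 1.87 and 1.78 CPM in Tsk, a log2 fold change of -0.77 ± 0.27 (SE; adjusted p = 0.154 by edgeR) and -0.47 without WT library 1. H2aw, the H2A gene of the small cluster on chromosome 11, had a log2 fold change of 0.09 ± 0.14 (SE; adjusted p = 0.765 by edgeR). H2ac4 overlapped between the groups, at -0.58 ± 0.29 (SE; adjusted p = 0.314 by edgeR), and -0.29 without WT library 1. The single member with Tsk above WT in every library, H2ac21, lay between 0.453 and 0.705 CPM in the 6 libraries and had an edgeR adjusted p of 0.666.

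H2bc4 (chr13:23684199-23692908, plus strand) was the H2B gene with the closest WT libraries, at 31.5, 33.2 and 30.9 CPM. It stood at 24.6, 22.96 and 17.1 CPM in Tsk, below every WT library. Its log2 fold change was -0.57 ± 0.15 (SE; adjusted p = 0.0809 by edgeR) and hardly moved without WT library 1, at -0.55. H2bc7 stood at 23.2, 8.99 and 14.5 CPM in WT and at 14.7, 11.6 and 10.7 CPM in Tsk. Here the Tsk libraries lay between WT libraries 1 and 2, and the log2 fold change of -0.34 ± 0.31 (SE) changed sign to 0.09 without WT library 1. H2bc6 had a log2 fold change of -0.25 ± 0.17 (SE; adjusted p = 0.462 by edgeR). Of the 12 head-to-head pairs of an H2A and an H2B gene, 9 had both genes tested, and both were below 0 in 7 of these. The H2B gene had more reads in 8 of the 12 pairs.

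Linker histone H1 binds where DNA enters and leaves the nucleosome. The H1 genes had the closest WT libraries of any class. Their sum was 171.4, 173.0 and 168.9 CPM in WT and 140.3, 138.5 and 130.8 CPM in Tsk, without overlap, a ratio of 0.798, and 0.799 to WT libraries 2 and 3 alone. As a share of all counts the H1 groups overlapped, at 0.0156 ± 0.00175% in WT and 0.0150 ± 0.000354% in Tsk (SD, n = 3 each). All 5 tested H1 genes were below 0, with a median log2 fold change of -0.36, and -0.08 with library totals. H1f2 (chr13:23738808-23740367, plus strand) stood at 89.3, 100.9 and 99.5 CPM in WT and at 77.7, 78.9 and 69.6 CPM in Tsk. Its log2 fold change was -0.36 ± 0.12 (SE; adjusted p = 0.151 by edgeR), and -0.39 without WT library 1. H1f3 stood at 24.0, 21.3 and 20.9 CPM in WT and at 17.49, 15.7 and 17.3 CPM in Tsk, also without overlap, at -0.39 ± 0.12 (SE; adjusted p = 0.121 by edgeR). H1f4 overlapped, at -0.18 ± 0.13 (SE; adjusted p = 0.498 by edgeR).

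**Figure D2:**
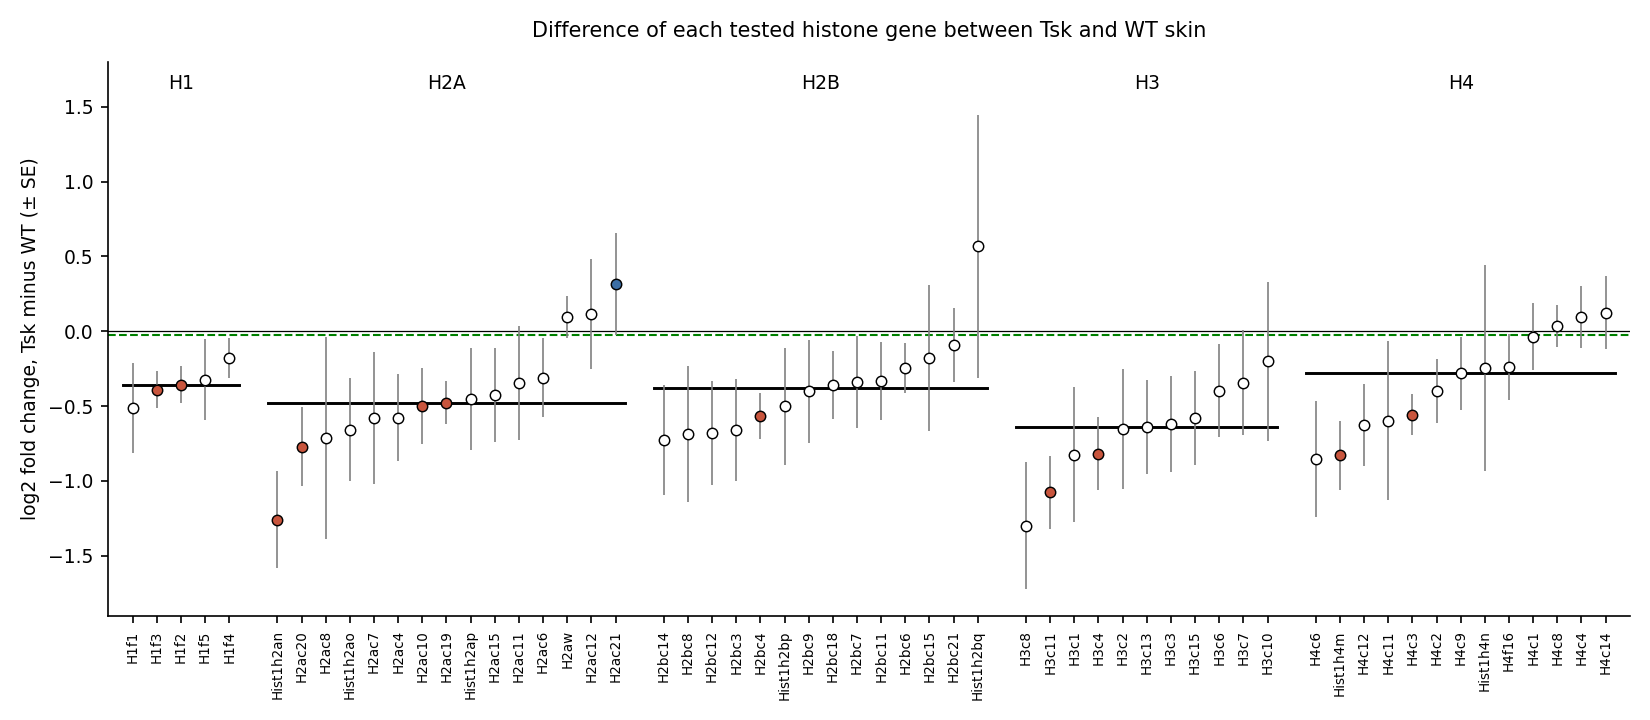
Log2 fold change (Tsk minus WT) of each of the 58 tested histone genes, with its SE, ordered within each class. Red points mark genes whose Tsk libraries all lie below the WT libraries, the blue point marks H2ac21 with the reverse, and open points overlap. Black lines are class medians (from -0.64 in H3 to -0.28 in H4) and the dashed green line is the median over all genes tested (-0.03).

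The genes of this family that are known from testis were near or at 0 in skin. H1f6 held 0, 0 and 0 counts in WT and 1, 5 and 4 in Tsk. H2ac1 held 1 count in Tsk library 4 and 0 elsewhere. H2bc1 held 0 counts in all 6 libraries, and a count of 0 allows up to 3 counts per library, or 0.171 CPM of the library total at most. Also below the filter were H2ac13, H2ac18, H2bc13, Hist1h2br, H2bu2 and H3c14, which makes 9 members not tested. The 10 members with the most reads held 57.3% of the summed CPM, and 15 members reached a mean of 10 CPM.

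The spread between WT libraries differed with the type of gene model. In 21 members the annotated transcript ended within 100 bases after the stem-loop, in 21 it ran further, and in 25 the model held no stem-loop of the forms searched. Over the tested members of the first type, WT library 1 was a median of 2.32 times WT library 2, and the median log2 fold change was -0.60. Over the second type these values were 1.51 and -0.35, and over the third they were 1.74 and -0.41. Without WT library 1 the 3 medians came to -0.15, -0.11 and -0.11 in turn. In 10 members, chosen after their values were seen, WT libraries 1 and 2 were within 1.25-fold of each other. These were H1f2, H1f3, H1f4, H2ac19, H2aw, H2ac6, H2bc4, H2bc6, H2bc21 and Hist1h4n. Exon length was a median of 2038 bases in these 10 and 522 bases in the other 48 tested members. The model ran past the stem-loop in 6 of the 10 and in 12 of the 48.

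Genes that make and process histone mRNA stayed close to 0 in log2 fold change, and none was called by edgeR or DESeq2. SLBP, which binds the stem-loop, was encoded by Slbp at 16.4, 12.6 and 15.1 CPM in WT and at 14.8, 15.03 and 13.7 CPM in Tsk. The groups overlapped, with a log2 fold change of -0.02 ± 0.14 (SE; adjusted p = 0.961 by edgeR). Npat, whose protein activates histone gene transcription at the histone locus body, stood at 14.2, 13.97 and 12.9 CPM in WT and at 15.3, 15.3 and 12.5 CPM in Tsk. For Npat the log2 fold change was 0.07 ± 0.14 (SE; adjusted p = 0.840 by edgeR). Of 17 genes for histone mRNA transcription, 3' end processing and decay, 9 were below 0, the median was -0.0024 and 0 had an unadjusted p under 0.05. Tut7, a terminal uridylyl transferase, and Sympk, a scaffold of the cleavage complex, were the most abundant, at 0.03 ± 0.13 and -0.19 ± 0.12 (SE). Among 15 histone chaperone genes, whose products carry histones to DNA, 0 were called by edgeR or DESeq2, 0 had an unadjusted p under 0.05 and the median was -0.04. The values were -0.03 ± 0.14 for Nap1l1 and 0.10 ± 0.16 for Hjurp (SE).

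Replication-independent variants can be made outside S phase, and most of their mRNAs are polyadenylated, while H2ax is known to give both a polyadenylated and a stem-loop form. Of 12 such genes 11 were tested and 0 were called by edgeR or DESeq2, with 6 below 0 and a median log2 fold change of -0.0060. H3f3b, a gene of H3.3, stood at 139.2, 100.9 and 105.6 CPM in WT and at 130.4, 108.6 and 90.2 CPM in Tsk. Its log2 fold change was -0.07 ± 0.18 (SE; adjusted p = 0.876 by edgeR), and that of H3f3a, the other H3.3 gene, was -0.19 ± 0.16, or 0.11 and -0.05 without WT library 1. H2az1, for the variant H2A.Z, was at -0.19 ± 0.12 (SE; adjusted p = 0.424 by edgeR). The 1 variant with an unadjusted p under 0.05 was the linker histone gene H1f10, named after its value was seen, at 0.99 ± 0.33 (SE; adjusted p = 0.143 by edgeR).

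The mitosis and DNA replication lists were, like the histone genes, highest in WT library 1, and edgeR called none of their genes. Mki67, which marks proliferating cells, stood at 80.2, 37.6 and 52.5 CPM in WT and at 45.4, 34.0 and 39.8 CPM in Tsk. WT library 1 was again the highest, WT library 2 lay within the Tsk range, and the log2 fold change was -0.51 ± 0.26 (SE; adjusted p = 0.308 by edgeR), or -0.16 without WT library 1. Top2a, the topoisomerase of mitotic chromosomes, was at -0.31 ± 0.25 (SE; adjusted p = 0.542 by edgeR), or -0.04 without WT library 1. All 20 mitosis genes were below 0, with a median of -0.49 (16 and -0.20 without WT library 1), and 4 had an unadjusted p under 0.05, as did 20.1% of all genes. DESeq2's Wald test called 1, the mitotic kinase gene Aurka, at an adjusted p of 0.0237, and its adjusted p over all alternatives ran to 0.274. Of 30 DNA replication genes, 26 were below 0 with a median of -0.20 (18 and -0.05 without WT library 1), 0 were called by edgeR or DESeq2, and 3 had an unadjusted p under 0.05.

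Pcna, the sliding clamp of the replication fork, was at -0.06 ± 0.13 (SE; adjusted p = 0.858 by edgeR). Rrm1, the large subunit of ribonucleotide reductase, was at -0.10 ± 0.11. On a scale of mean log2(CPM + 0.5), the tested histone genes stood at 3.03, 2.27 and 2.62 in WT and at 2.39, 2.22 and 2.29 in Tsk. The mitosis genes stood at 3.12, 2.20 and 2.84 in WT and at 2.47, 2.12 and 2.43 in Tsk on that scale. Both lists thus put the 6 libraries in one order, with WT library 1 highest and Tsk library 5 lowest. The DNA replication genes spanned less, at 3.23, 2.89 and 3.01 in WT and at 2.96, 2.84 and 2.81 in Tsk. The part of cell division in the histone difference was not tested.

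**Figure D3:**
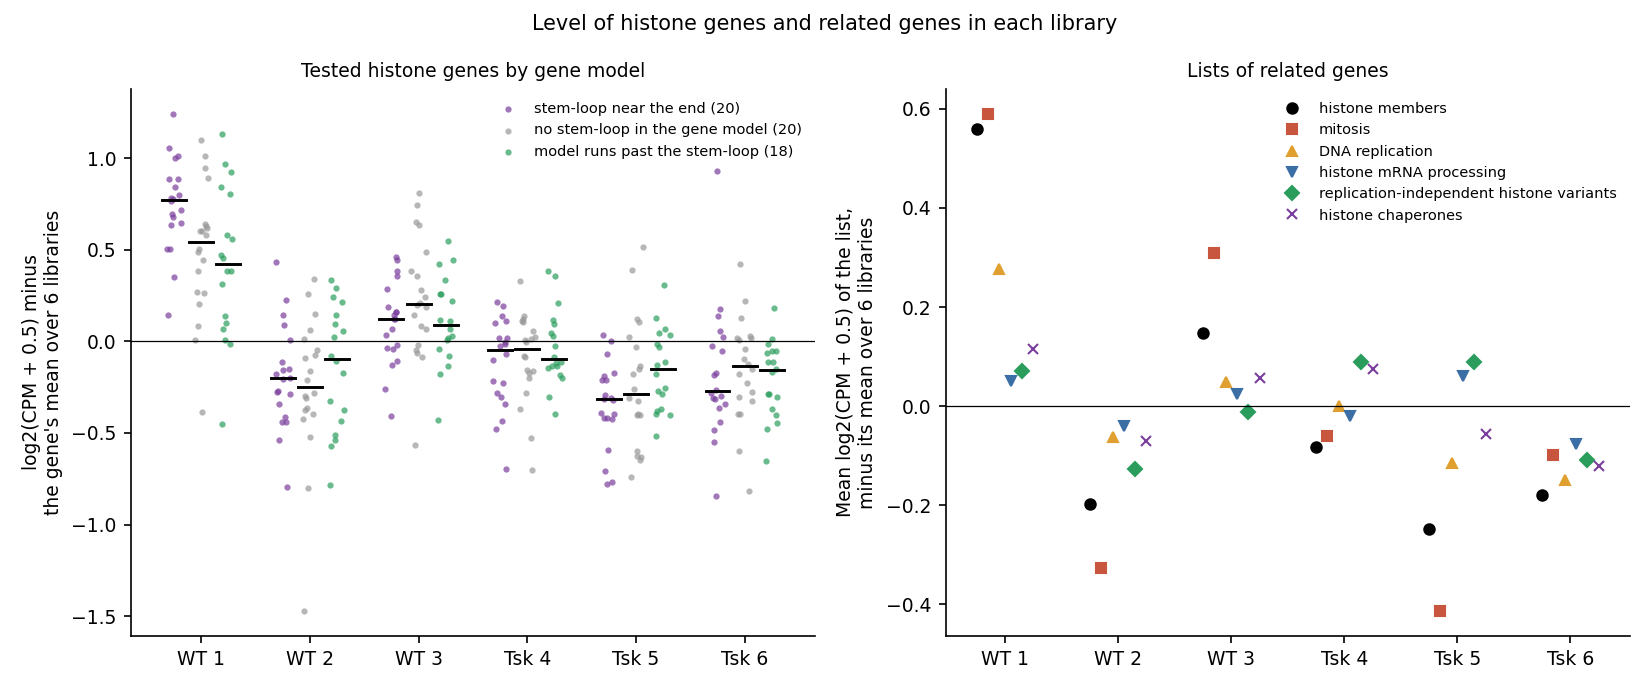
Left, log2(CPM + 0.5) of each tested histone gene minus its own mean over the 6 libraries, in colours for the 3 types of gene model, with black lines at the medians. Right, the mean log2(CPM + 0.5) of each gene list minus its mean over the 6 libraries. WT 1 lies highest and WT 2 low for both the histone genes and the mitosis genes, whereas histone mRNA processing genes, variants and chaperones vary little.

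Markers of several cell types in whole skin also differed between the groups, and their part in the histone difference was not tested. In the list for the basal epidermis, the layer of dividing keratinocytes, 8 of 8 genes were below 0 with a median of -0.43, and of -0.22 without WT library 1. EdgeR called 0 of them, DESeq2 1, and 1 had an unadjusted p under 0.05. Their summed level was 7425 to 9932 CPM in WT and 5058 to 7698 CPM in Tsk, with Krt5 at -0.60 ± 0.31 and Dst at -0.46 ± 0.21 (SE). The skeletal muscle list, with Ttn and Myh4, summed to 151956 to 272502 CPM in WT and 120010 to 143733 CPM in Tsk, with 12 of 15 genes below 0. EdgeR called 0 of these, 10 had an unadjusted p under 0.05, and DESeq2 called 10 lower and 1 higher. Leaving out WT library 1, edgeR called 9 lower and 1 higher, where it called 3.01% of all genes lower and 3.71% higher. WT library 1 held the lowest muscle level of the 3 WT libraries, at 11.3 against 12.3 and 12.01 on the mean log2(CPM + 0.5) scale. In the suprabasal epidermis list 3 of 8 genes rose by edgeR's test and 4 by DESeq2, where 2.72% and 5.79% of all genes did. Among them was Lor, which makes the cornified envelope protein loricrin, at 1.78 ± 0.22 (SE). The log2 fold change was below 0 in 2 of the 8 genes.

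In the list for hair matrix and inner root sheath, edgeR called 5 of 10 tested genes higher, and 1 of the 10 was below 0. Among those called were Dlx3, a regulator of hair shaft differentiation, and Krt25, an inner root sheath keratin. Dlx3 rose by 1.87 ± 0.29 and Krt25 by 4.77 ± 0.74 on the log2 scale (SE; adjusted p = 0.0159 and 0.0166 by edgeR). Krt25 stood at 0.111, 0.259 and 0 CPM in WT and at 2.22, 6.02 and 2.21 CPM in Tsk, so the size of its rise rests on very few WT reads. The list's summed level was 42.6 to 74.5 CPM in WT and 86.4 to 93.2 CPM in Tsk. Without WT library 1, edgeR called 6 genes of this list higher (3.71% of all genes), and DESeq2 on all libraries called 4. In the fibroblast list edgeR called 3 of 10 higher (Pi16 at 3.14, Dpt at 1.22 and Thy1 at 0.72 in log2 fold change). In the adipocyte list it called 2 of 10 higher (Lep and Cfd), and in the endothelium list 4 of 8 (Plvap, Vwf, Tek and Lyve1). Of all genes, edgeR called 2.72% higher. Without WT library 1 these 3 counts were 2, 0 and 3, and DESeq2 called 7, 7 and 5 higher. Called or not, every gene of the fibroblast, adipocyte and endothelium lists was above 0 with all libraries. The median log2 fold changes were 1.03, 2.45 and 1.08 in turn. No gene of the leukocyte list was called by edgeR, with 5 of 10 tested at an unadjusted p under 0.05, and DESeq2 called 3 higher and 1 lower. Cd74 was at 0.93 ± 0.25 and Csf1r at 1.06 ± 0.28 (SE). No gene of these 8 lists was at 0 counts in all libraries.

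The median of the histone genes was below 0 in every setting run, while its size depended on the scaling and on WT library 1. With library totals in place of TMM factors the median over all genes moved from -0.03 to 0.25, and that of the members from -0.44 to -0.20, with 42 of 58 below 0. The gap between both medians was -0.45 there and -0.41 with TMM factors. Of the 11 members with separated groups, 3 remained separated in CPM of the library total, namely H3c11, H2bc4 and Hist1h2an, and 2 members, H2aw and H2ac21, were separated with Tsk higher. Of all genes, 2.59% were separated with Tsk lower and 29.1% with Tsk higher on that scale. H3c11 was called with DESeq2's size factors in edgeR, where 138 of 19971 genes were called lower. It was also called, with H4c3 and Hist1h4m, without the filter on low counts, where 0.899% of all genes were called lower.

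**Figure D4:**
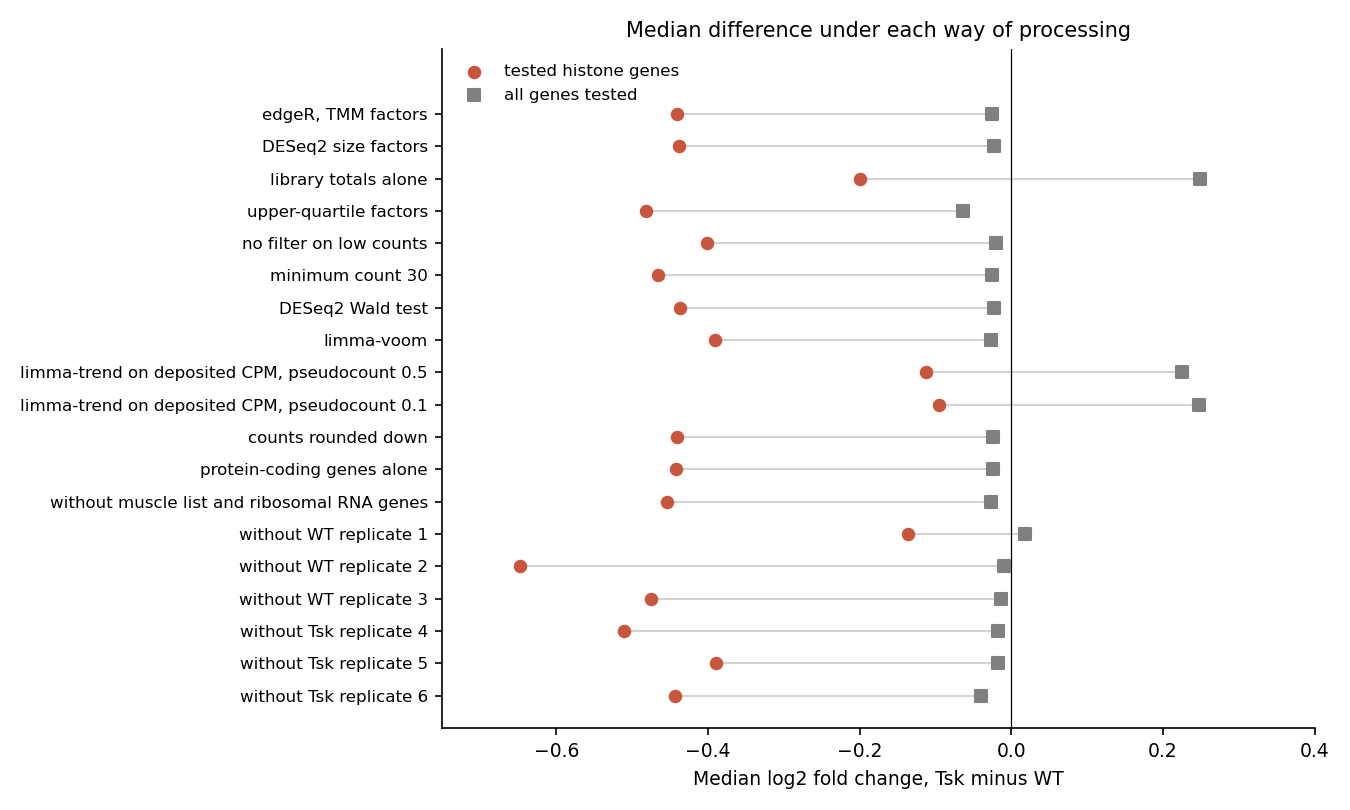
Median log2 fold change (Tsk minus WT) over the tested histone genes (red circles) and over all genes tested (grey squares), 1 line for each way of processing. The histone median lies left of the median of all genes in each line, with the gap narrowest without WT library 1 (-0.14 against 0.02).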

How the data were processed

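The authors' deposited table of estimated counts per gene (not whole numbers) was the main input. The deposited CPM table served in the limma alternatives with a pseudocount of 0.5 or 0.1. The submitters' processing notes name bcl2fastq 2.19.1.403, STAR, Partek 7.0 and the mm10 build, without the role of each. For the strand setting and for the division of reads shared between copies, the method is not given in the sources used here. Ribosomal RNA was depleted and libraries were made with a stranded kit, per the labels' protocols. Estimated counts were rounded, filtered with filterByExpr (minimum count 10, minimum total 15) and fitted with edgeR 4.0.16 (R 4.3.3, TMM factors, robust quasi-likelihood test) as 3 Tsk against 3 WT samples. Adjusted p-values are Benjamini-Hochberg over all 19971 genes tested, with a threshold of 0.05. Alternatives used DESeq2 1.42.0, limma 3.58.1 (voom on the counts, and log2 of CPM plus 0.5 or 0.1), other scalings, filters and samples left out. On simulated data over 19702 genes, 52% of 2-fold and 92% of 4-fold changes were recovered and 7.69% of calls were false. Members, the 13 lists (177 symbols) and the rule for named genes were chosen with earlier results of these data known. Named in each class were members past the threshold (up to 6), the 3 with the highest mean CPM, and up to 3 of mean CPM of at least 1 whose groups did not overlap. Named in each list were up to 4 genes past the threshold or else the 2 most abundant, and always Slbp, Npat, Mki67, Pcna, Top2a, H2az1, H3f3b and Fbn1. H3c8, Aurka, H1f10 and the 10 members with like levels in WT libraries 1 and 2 were named after their values were seen. Uniqueness is the share of 50-base stretches of a gene's transcripts found in no other gene. Sequences came from GENCODE M21 transcripts and RefSeq promoters (GRCm38.p6). The limit given for a count of 0 covers counting error only.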

Additional observations from a re-analysis of the deposited data

How the results depend on the processing

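No paired analysis was possible because the groups share no replicate numbers (1 to 3 in WT, 4 to 6 in Tsk). EdgeR called 1 of 58 histone members lower with DESeq2's size factors (H3c11), where it called 138 of 19971 genes lower. Without the filter on low counts it called 3 of 65 lower (H3c11, H4c3, Hist1h4m), where it called 0.899% of all genes lower. DESeq2's Wald test called 4. Leaving out 1 library at a time gave 0 to 1 calls, the 1 (H3c8) without WT library 2. The other settings gave 0 calls, with a minimum count of 30, upper-quartile factors, library totals, limma, counts rounded down, protein-coding genes alone, or without muscle and ribosomal RNA genes. Among the related lists, 1 gene (Aurka) was called without the filter and 1, again Aurka, by DESeq2. Calls over all genes ran from 63 (without WT library 3) to 1916 (limma, pseudocount 0.5), against 683.

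The median log2 fold change of the histone genes was -0.11 in limma on deposited CPM with a pseudocount of 0.5 and -0.0952 with 0.1, and it ran from -0.65 (without WT library 2) to -0.14 (without WT library 1) with 1 library left out. In these CPM the median of all genes stood at 0.23 and 0.25. The summed histone share was 0.0738% in WT and 0.0642% in Tsk among protein-coding genes, and 0.0605% in WT and 0.0544% in Tsk without ribosomal RNA genes. Why these values moved was not tested.

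None of the genes that changed sign had been called. With library totals the log2 fold change was 0.0964 for H1f4, 0.0251 for H2bc6, 0.0942 for Sympk, 0.18 for H3f3b, 0.0705 for H3f3a, 0.23 for Nap1l1, 0.18 for Rrm1, 0.21 for Pcna, 0.24 for Slbp and 0.0740 for H2az1. With limma at a pseudocount of 0.5 it was 0.10 for H1f4, 0.0257 for H2bc7, 0.0208 for H2bc6, 0.0925 for Sympk, 0.21 for H3f3b, 0.0865 for H3f3a, 0.25 for Nap1l1, 0.18 for Rrm1, 0.22 for Pcna, 0.00701 for Top2a, 0.26 for Slbp and 0.0837 for H2az1. At 0.1 it was 0.11 for H1f4, 0.0310 for H2bc7, 0.0214 for H2bc6, 0.0930 for Sympk, 0.21 for H3f3b, 0.0870 for H3f3a, 0.25 for Nap1l1, 0.18 for Rrm1, 0.22 for Pcna, 0.00843 for Top2a, 0.27 for Slbp and 0.0854 for H2az1. Upper-quartile factors gave -0.00464 for H4c8 and -0.00340 for Tut7. With 1 library left out the values ran from -0.61 to 0.0916 for H2bc7, -0.21 to 0.11 for H3f3b, -0.0969 to 0.38 for H4c4, -0.0562 to 0.15 for H4c8, -0.00215 to 0.29 for Hjurp, -0.13 to 0.0504 for Nap1l1, -0.14 to 0.0255 for Pcna, -0.11 to 0.0912 for Slbp and -0.0493 to 0.12 for Tut7.

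Members with a mean under 1 CPM rest on few reads. Reads shared between copies limit every value of a single gene.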
